A study of Drosophila melanogaster with 2 samples.

Results

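Binding of GFP-tagged Gcm2 was examined at 7 genes that encode BTB-domain transcription factors of the fly nervous system: lola, chinmo, fru, psq, ab, bab1 and bab2. They were chosen by name from the 13945 protein-coding genes annotated on the 6 main chromosome arms, and a region was assigned to a gene when its summit, the strongest point of the region, lay in the gene body or within 5 kb of it. All 7 were found in the annotation, and their windows do not overlap one another. The material was whole Drosophila melanogaster embryos of both sexes, collected 0 to 24 h after laying, from a transgenic line with GFP fused to the C terminus of gcm2, and chromatin was immunoprecipitated with an antibody against GFP. Both libraries belong to a single group and carry the labels biological replicate 2 and 3. Embryos without the tag and mock precipitations were not analysed here, the promoter that drives the fusion gene is not given in the sources used here, and signal from different cell types of the embryo is pooled, so a weak region and a region bound in few cells cannot be told apart.

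Gcm2 and its paralog Gcm are transcription factors of the GCM family, known for switching precursor cells to glial and blood cell fates. BTB factors pair through the BTB domain at the N terminus and bind DNA through a separate domain near the C terminus. In lola, chinmo, fru and ab this domain is made of C2H2 zinc fingers, whereas psq, bab1 and bab2 carry a Pipsqueak-type helix-turn-helix, so the name BTB zinc finger genes fits only part of the group. Several of these genes use alternative promoters and alternatively spliced last exons, which give 1 gene many proteins with a shared BTB domain and different DNA-binding ends.

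The data are 4 lists of regions in the dm6 build: 30000 candidates from each replicate, 30000 from both replicates pooled, background regions included, and 2177 peaks retained by the irreproducible discovery rate (IDR). The IDR peaks were the 2177 pooled candidates of highest signal, an enrichment value given by the authors, and the weakest had a signal of 57.76. Rank 1 is the highest signal in a list. Signals carry no replicate error and read depth is unknown, so the values of replicates 2 and 3 stand beside each pooled value in place of an error.

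For chinmo, fru, ab, bab1 and bab2 the strongest pooled region is printed below, as its summit with 100 bases on each side, because these are the stretches to which the highest values of these 5 genes belong. They are plus-strand sequences of the Release 6 reference from RefSeq, written 5′ to 3′. The regions of fru, ab and bab2 were IDR peaks and those of chinmo and bab1 were not. Capitals mark every match to the motifs searched, on either strand: the GATA core AGATAA, the homeodomain core TAATTA, the E-box CAGCTG and the repeat GAGAG.
chinmo, chr2L:1649655-1649855, signal 57.4: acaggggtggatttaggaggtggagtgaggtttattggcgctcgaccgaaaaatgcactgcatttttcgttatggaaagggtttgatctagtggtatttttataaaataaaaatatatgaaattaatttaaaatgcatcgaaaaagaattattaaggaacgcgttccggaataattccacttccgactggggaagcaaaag
fru, chr3R:18439403-18439603, signal 58.5: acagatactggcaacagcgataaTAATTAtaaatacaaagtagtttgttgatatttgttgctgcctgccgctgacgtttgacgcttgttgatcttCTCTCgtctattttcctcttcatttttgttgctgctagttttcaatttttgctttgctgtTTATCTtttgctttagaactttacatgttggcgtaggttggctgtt
ab, chr2L:11208973-11209173, signal 64.6: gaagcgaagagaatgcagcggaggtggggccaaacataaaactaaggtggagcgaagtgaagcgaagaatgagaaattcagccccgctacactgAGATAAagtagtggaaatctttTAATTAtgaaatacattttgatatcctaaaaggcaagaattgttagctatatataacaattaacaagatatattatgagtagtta
bab1, chr3L:1032678-1032878, signal 44.1: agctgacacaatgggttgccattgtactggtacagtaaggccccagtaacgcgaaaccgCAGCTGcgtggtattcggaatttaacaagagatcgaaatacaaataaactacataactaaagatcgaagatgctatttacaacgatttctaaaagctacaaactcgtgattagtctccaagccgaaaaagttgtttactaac
bab2, chr3L:1166345-1166545, signal 73.9: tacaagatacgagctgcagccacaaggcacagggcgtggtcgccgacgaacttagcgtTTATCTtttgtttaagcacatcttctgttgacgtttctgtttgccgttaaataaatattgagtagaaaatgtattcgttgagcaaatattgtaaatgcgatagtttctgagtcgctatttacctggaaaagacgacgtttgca

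Of the 7 genes, 5 had an IDR summit in the window (71.4%), namely lola, fru, psq, ab and bab2. Among all protein-coding genes the share was 30.4%, and among the 1013 protein-coding genes of 20 kb or more it was 46.2%. The 7 gene bodies measured 36.8 to 131 kb, whereas the median of those 1013 genes was 37.0 kb. The windows held 8 IDR summits in 528 kb, or 1.52 per 100 kb, beside 1.63 per 100 kb over the 6 arms and 1.36 per 100 kb in the windows of the genes of 20 kb or more. By density the group therefore lay near the genome-wide value. Without lola, the count was 4 summits in 456 kb, or 0.877 per 100 kb.

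**Figure D1:**
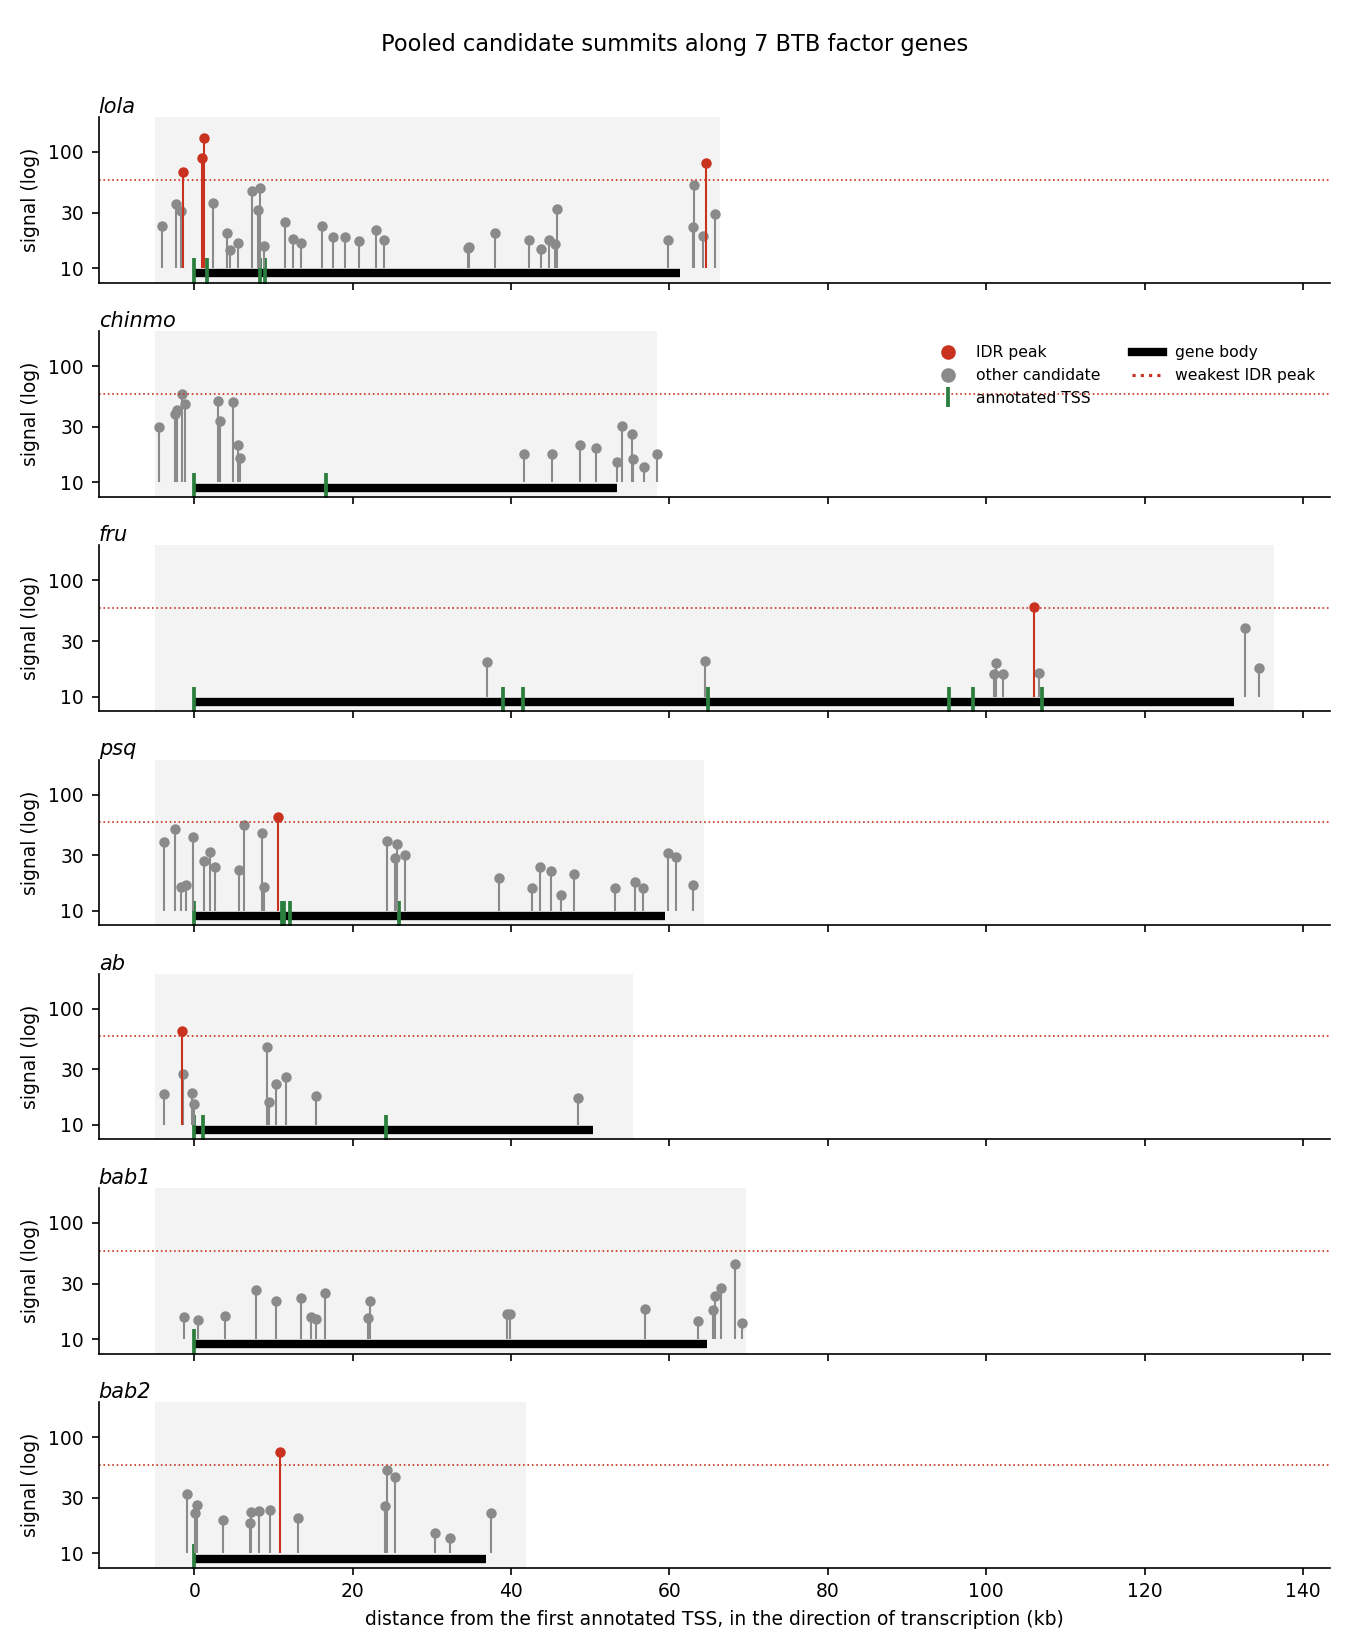
Pooled candidate summits along the 7 genes. The horizontal axis is the distance from the first annotated transcription start site (TSS) in kb, the vertical axis is the authors' signal on a log scale, red points are IDR peaks, grey points are other candidates, green ticks are annotated TSSs, and shading marks the gene body and 5 kb on each side. The 4 IDR summits of lola lie at both ends of its window, those of psq, ab and bab2 within 11 kb of the gene's start, and that of fru far inside the gene.

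lola, which encodes a family of factors that guide axon growth and keep neurons differentiated, held the strongest regions of the group (2R:10481894-10543291, minus strand, 24 transcripts from 4 TSSs). Its window had 4 IDR summits, and 3.85% of the genes of 20 kb or more had 4 or more. The 4 include overlapping peaks and a peak at a promoter of the nearby gene whd, described below. The strongest peak, chr2R:10541815-10542278, had a pooled signal of 132 (rank 417) and lay 377 bp upstream of the second TSS, from which 8 transcripts start. A TSS of the antisense RNA gene asRNA:CR45135 also lay within 500 bp of this summit. Replicate 3 had a summit 9 bp away with signal 59.8 (rank 492). Replicate 2 had none within 100 bp, but one 149 bp away with signal 71.6 (rank 403).

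An overlapping IDR peak, chr2R:10542014-10542477, had signal 89.5 (rank 907) in the intron between the first TSS and the second. The same replicate 2 region lay 50 bp from it, and replicate 3 had signal 41.6 (rank 1045) 6 bp away. Both peaks may thus be read as 1 broad region, and merging overlapping peaks leaves 7 IDR regions for the group. A further peak lay 1406 bp upstream of the first TSS (chr2R:10544465-10544928, pooled signal 67.0), with signal 41.3 (rank 1227) in replicate 2 and 27.6 (rank 2372) in replicate 3.

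The remaining IDR peak of the lola window (chr2R:10478432-10478895, pooled signal 80.9) belongs there by distance only. It lay 3230 bp beyond the 3′ end of lola and within 500 bp of a TSS of whd, which encodes a carnitine palmitoyltransferase. Pef lies nearer to lola than this peak, with a pooled candidate in its body 1729 bp beyond lola. The summit of the IDR peak was also in the body of the antisense RNA gene asRNA:CR45134. Replicate 2 had signal 52.5 (rank 757) and replicate 3 had signal 24.8 (rank 2932) at it.

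Coding exons used by few of the lola transcripts held many weak candidates. Whether these are last exons or encode zinc fingers was not checked. Of the 37 pooled candidates in the window, 13 were in coding exons, against 16.4% of all pooled candidates. All 13 were among the 28 candidates that lay inside the gene. Each of the 13 fell in an exon used by 1 transcript (9 candidates) or 2 transcripts (4 candidates) of the 24. Their signals ran from 14.8 to 32.3 with a median of 17.5, and the strongest ranked 6314, so none was near the IDR set. In 3 of the 13 both replicates had a candidate within 100 bp. The candidate of rank 20247 also lay in the body of another annotated gene, pre-lola-G.

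Coding sequence made up 23.8% of the lola gene body and 4.01% to 8.69% of the other gene bodies, which together held 5 coding-exon candidates in the gene itself. Median GC content within 100 bp of the summit was 55.2% at the 13 coding-exon candidates of lola and 39.0% at its other 24. The part of base composition and of exon length in this count was not tested.

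bab2 held the strongest peak of the group outside the lola window. With its neighbour and paralog bab1 it forms the bric à brac pair, which patterns the leg joints, the ovary and the pigment of the abdomen. The peak (chr3L:1166213-1166676) had a pooled signal of 73.9 (rank 1355) and lay in an intron 10831 bp downstream of the only annotated TSS. Signal was 37.8 (rank 1460) in replicate 2 and 35.8 (rank 1412) in replicate 3, with summits 5 and 4 bp away. It was the only IDR peak of the group besides 1 of lola that both replicates also held among their own 2177 strongest regions.

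A second intronic candidate of bab2 (chr3L:1152658-1153121) had a pooled signal of 51.8 (rank 2684), just under the IDR set. In replicate 2 its signal of 32.3 ranked 2009, so it was among that library's 2177 strongest regions. In replicate 3 its counterpart ranked 6953.

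bab1 had no IDR summit in its window, although the window is longer than that of bab2 (74.7 against 46.8 kb). Its strongest pooled candidate (chr3L:1032546-1033009, signal 44.1, rank 3598) lay 3591 bp beyond the 3′ end of bab1, in an intron of the neighbouring gene trio. Signal there was 24.2 (rank 3578) in replicate 2 and 20.1 (rank 4484) in replicate 3. Of 20 pooled candidates in the bab1 window, 1 had a q-value at or below 0.05, beside 4 of 16 for bab2 and 22.7% of all pooled candidates. The 2 paralogs thus gave different values, and the difference was not tested.

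chinmo encodes a factor that marks early-born neurons and keeps stem cells in a youthful state, and it came closest to the IDR set without entering it. Its strongest pooled candidate (chr2L:1649523-1649986) lay 1503 bp upstream of the first TSS with signal 57.4 (rank 2196), against 57.76 for the weakest IDR peak. The libraries differed here: signal was 35.5 (rank 1437) in replicate 3 and 22.6 (rank 4087) in replicate 2. An intronic candidate 3062 bp downstream of the same TSS (chr2L:1654088-1654551, pooled rank 2870) showed a larger gap, with signal 32.1 (rank 1744) in replicate 3 and 12.6 (rank 12835, q = 0.222) in replicate 2. Both were among the 2177 strongest regions of replicate 3 and neither was in replicate 2.

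Upstream of chinmo the candidates formed a row: 4 summits lay 1179 to 2482 bp before the first TSS, with pooled signals of 46.8, 57.4, 42.0 and 38.4 in order of distance. Each had a candidate of both replicates within 100 bp. The regions with signals 46.8 and 57.4 overlapped, as did those with 42.0 and 38.4, so the 4 summits are not 4 separate regions. The nearest IDR peak was just outside the window, 7842 bp upstream of chinmo (chr2L:1643184-1643647, signal 149.8, rank 310), and stood 3747 bp from the TSS of the long noncoding RNA gene CR45695. Of all 7 genes, lola had the nearest IDR peak left out by the 5 kb limit, 6410 bp beyond its 3′ end at a promoter of whd (signal 69.3), followed by bab1 at 6587 bp (signal 75.3). The farthest one included was that 3230 bp beyond lola.

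fru encodes zinc finger factors that build male courtship circuits, with a first promoter whose transcripts are spliced by sex. It was the longest gene of the group (131 kb, 7 TSSs) and the sparsest, with 9 pooled candidates or 6.37 per 100 kb, and 80.3% of the genes of 20 kb or more had a higher density. Its IDR peak (chr3R:18439271-18439734, signal 58.5, rank 2119) was among the weakest retained. It lay in an intron 732 bp upstream of the last TSS, from which 1 transcript starts. Signal was 30.2 (rank 2333) in replicate 2 and 24.6 (rank 2991) in replicate 3, so neither library placed it among its own 2177 strongest regions. At the first TSS, which serves 8 of 15 transcripts, the nearest summit of the pooled list was 28358 bp away.

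psq encodes a factor that binds GAGAG repeats and acts in oogenesis, eye development and gene silencing. It had 29 pooled candidates, or 41.8 per 100 kb, second to lola with 51.8. Its IDR peak (chr2R:10568264-10568727, signal 64.1, rank 1761) lay 446 bp upstream of the second of 5 TSSs. Replicate 3 had signal 34.9 (rank 1497) 14 bp away, and replicate 2 had signal 27.3 (rank 2827) 108 bp away.

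At the first TSS of psq, which serves 6 of 15 transcripts, the libraries differed. The pooled candidate 99 bp upstream had signal 43.5 (rank 3675), replicate 2 had signal 34.5 (rank 1756) and replicate 3 had signal 11.9 (rank 13362). It was the strongest psq region in replicate 2, whereas the strongest in replicate 3 was the one near the second TSS.

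ab encodes a factor that limits the dendrite branching of sensory neurons. Its IDR peak (chr2L:11208841-11209304, signal 64.6, rank 1728) lay 1605 bp upstream of the first of 3 TSSs, between genes. Signal was 31.2 (rank 1854) in replicate 3, with the summit 98 bp away, and 26.7 (rank 2951) in replicate 2. Among the pooled candidates of ab, replicate 2 was instead highest at an intronic one, with signal 27.3 (rank 2815). The replicate 3 summit near the IDR peak also lay 103 bp from an overlapping pooled candidate of signal 27.4 (rank 8600).

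**Figure D2:**
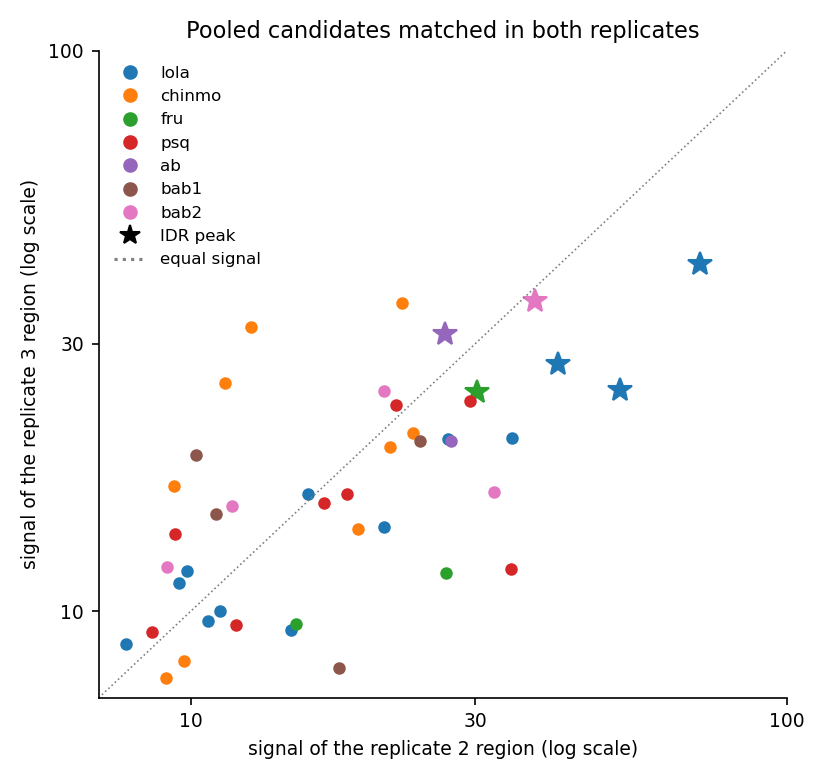
Signal of the replicate 2 region (horizontal, log scale) and of the replicate 3 region (vertical, log scale) within 100 bp of the 44 pooled candidates matched in both libraries. Colours are genes, stars are IDR peaks and the dotted line marks equal signal. The 3 matched lola IDR peaks lie to the replicate 2 side, while the strongest chinmo candidates lie to the replicate 3 side.

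Of the 8 IDR summits, 6 had a candidate of both replicates within 100 bp, against 93.9% of all IDR peaks, and the other 2 had one of replicate 2 at 149 and 108 bp. Among all 142 pooled candidates of the 7 windows, 44 (31.0%) were matched in both libraries, against 33.9% of the whole pooled list. Another 43 were matched in replicate 2 alone, 36 in replicate 3 alone and 19 in neither. Across the 44 matched candidates, the ranks in both libraries correlated with a Spearman rho of 0.657, a description over regions that share the same libraries.

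Taking each library's own 2177 strongest regions gave different genes. Replicate 2 had 5 such regions at lola, 2 at psq and 2 at bab2. Replicate 3 had 3 at lola, 2 at chinmo and 1 each at psq, ab and bab2. Of the lola regions of replicate 2, those of rank 757 and 1753 lay beyond the 3′ end of lola. They were at promoters of whd and of Pef and trsn. The lola regions of replicate 3 lay 68 to 570 bp from a lola TSS. The genes with such a region in both libraries were lola, psq and bab2, whereas chinmo and ab had one in replicate 3 alone, and fru and bab1 had none in either. At psq the libraries held different regions. Those of replicate 2 lay 111 and 3964 bp upstream of the first TSS, and that of replicate 3 lay 460 bp upstream of the second.

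Pooled candidates numbered 37 for lola, 29 for psq, 20 each for chinmo and bab1, 16 for bab2, 11 for ab and 9 for fru. Over the 7 windows the density was 26.9 per 100 kb in the pooled list, 29.0 in replicate 2 and 25.0 in replicate 3, beside 22.4 over the 6 arms in each list and 20.1 pooled in the genes of 20 kb or more. The replicate densities were close for lola (39.2 and 40.6 per 100 kb), bab2 (32.0 in each) and fru (9.2 and 9.91). They differed most for ab (33.1 in replicate 2 and 18.2 in replicate 3) and chinmo (42.6 and 26.8). Close densities do not mean shared regions. Of the pooled candidates, 13 of 37 for lola and 5 of 16 for bab2 were matched in both replicates. Introns held 70 of the 142 candidates, against 33.6% of the pooled list, and promoters of any gene held 30, against 32.9%. Of the 142, 8 were retained as IDR peaks, against 7.26% of the pooled list, 38 (26.8%) had a q-value at or below 0.05, and 15 lay within 500 bp of a TSS of another gene and of no TSS of the member.

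**Figure D3:**
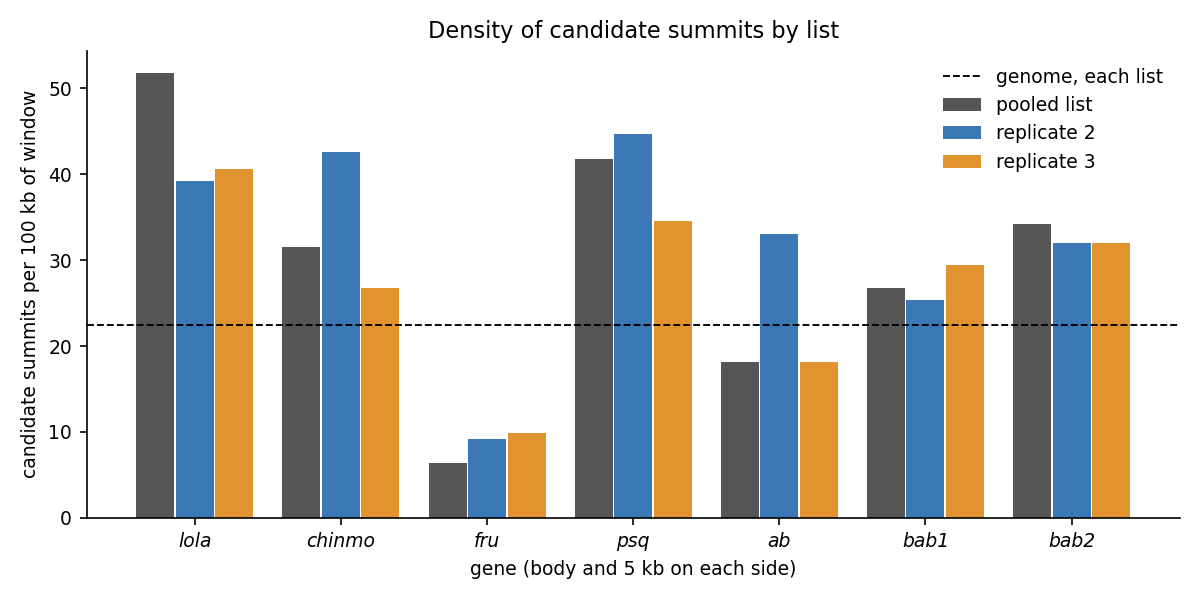
Candidate summits per 100 kb of window (vertical) for each gene in the pooled list and in each replicate. The dashed line is the density over the 6 arms, 22.4 per 100 kb in each list. lola, chinmo, psq, bab1 and bab2 exceed it in all 3 lists, ab in replicate 2 alone, and fru in none.

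The 7 genes have 23 distinct annotated TSSs. An IDR summit lay within 500 bp of 2 of them (8.70%), the second TSS of lola and the second of psq, against 9.83% of all protein-coding TSSs. A pooled candidate lay within 500 bp of 11 (47.8%), against 52.1%, one of replicate 2 of 8 (34.8%), against 51.2%, and one of replicate 3 of 10 (43.5%), against 9795 of 19607. The IDR and pooled shares were near those of all TSSs. At 6 TSSs the pooled list and both replicates had a candidate, and these were TSS 3 of lola, TSS 7 of fru, TSSs 1 and 5 of psq, and those of bab1 and bab2. The candidates of the 3 lists at a TSS need not be the same region. At bab1 they lay 498 bp downstream (pooled), 474 bp upstream (replicate 2) and 138 bp downstream (replicate 3). The pooled one had no candidate of either replicate within 100 bp.

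The busiest promoter of lola by annotation, TSS 3 with 11 transcripts, had a pooled candidate 37 bp away with signal 49.1 (rank 2968). Signal was 34.3 (rank 1540) in replicate 3 and 20.4 (rank 4985) in replicate 2. The fourth TSS had a weak pooled candidate 81 bp away (signal 15.6, rank 24494), and the first TSS had none within 500 bp. In the pooled list, among the 3 lola TSSs with a candidate within 500 bp, signal was thus highest at TSS 2, then TSS 3, then TSS 4. In replicate 2 the nearest summit to TSS 2 lay 526 bp away, so there TSS 3 had the highest signal within 500 bp.

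At the single TSS of bab2 the nearest pooled candidate stood 113 bp away with signal 22.2 (rank 12868), and at that of bab1 498 bp away with signal 14.6 (rank 27140). The first TSS of ab had a pooled candidate 33 bp away with signal 15.0 (rank 25795). The fifth TSS of psq, which serves 5 transcripts, had one 169 bp away with signal 37.7 (rank 4760). Neither chinmo TSS had a pooled candidate within 500 bp. Only for lola and psq was the strongest pooled region within 500 bp of an annotated TSS of the gene itself.

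**Figure D4:**
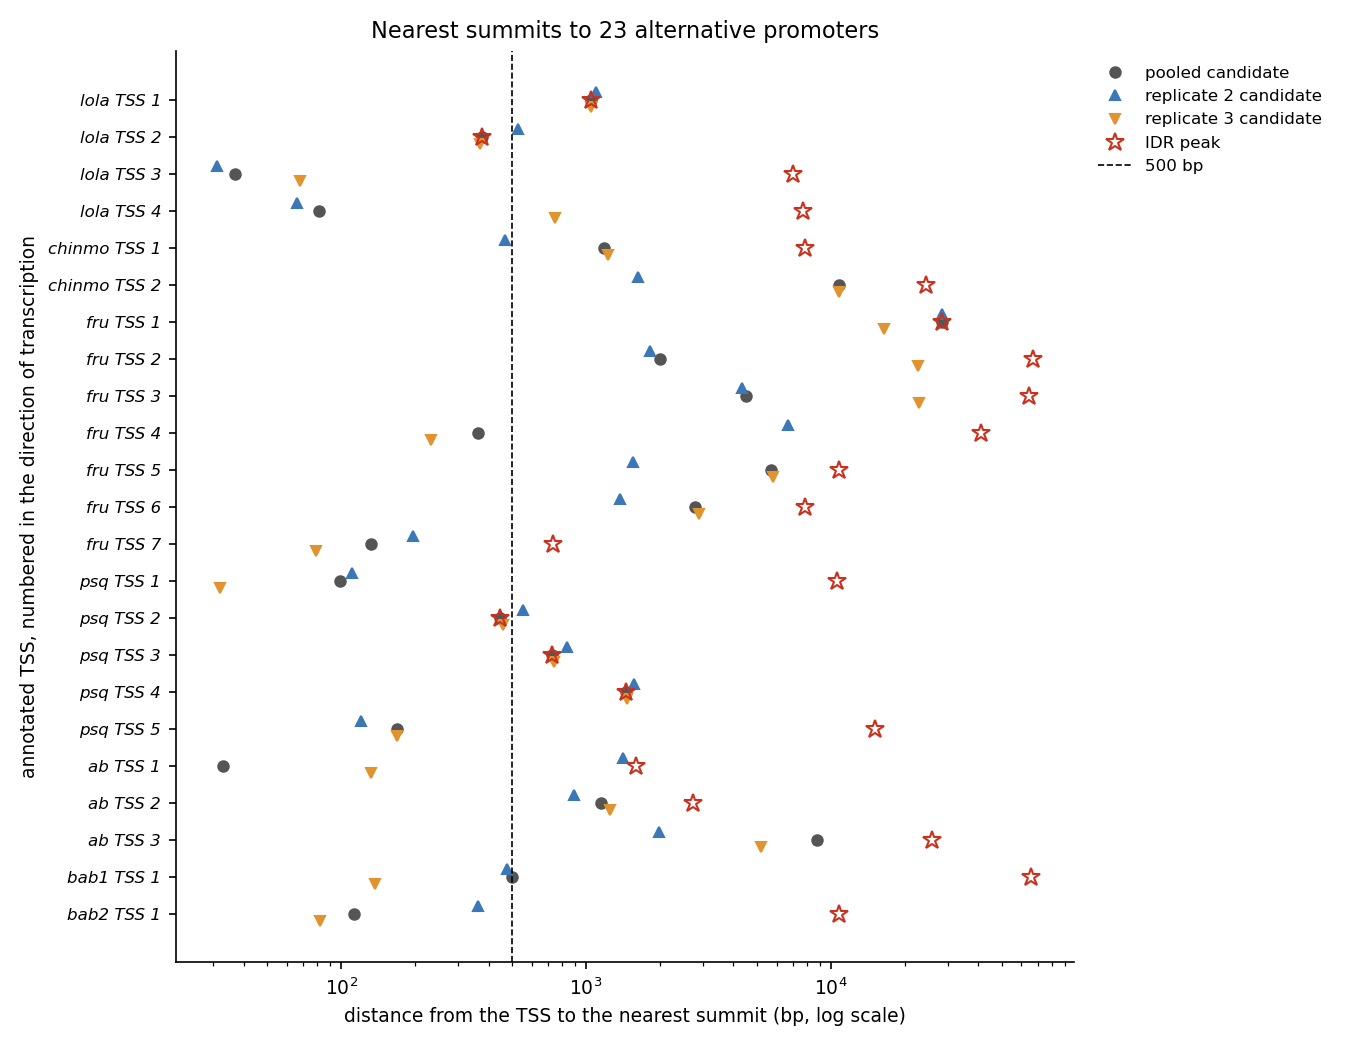
Distance in bp (horizontal, log scale) from each of the 23 annotated TSSs to the nearest summit in the pooled list, in each replicate and among IDR peaks. The dashed line marks 500 bp. IDR summits reach within it at the second TSS of lola (377 bp) and the second of psq (446 bp).

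The octamer bound by GCM factors (ATGCGGGT, ATGCGGGC, ATACGGGT or ATACGGGC, either strand) was found within 100 bp of none of the 8 IDR summits, against 0.781% of all IDR peaks. Of the 142 pooled candidates 1 had it, against 1.54% of the pooled list. That one was a weak candidate beyond the 3′ end of lola (rank 12475), at the promoter of Pef. The strict form ATGCGGGT was at none of the 8 IDR summits, against 0.322% of all IDR peaks. Among all protein-coding TSSs, 0.729% had the octamer within 100 bp. At such low shares, 8 summits are too few for a count of 0 to set them apart from other peaks.

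Other motifs were present at some of the peaks in the sequences printed above. The GATA core AGATAA occurred at 3 of 8 IDR summits, those of fru, ab and bab2, against 12.4% of all IDR peaks, and at ab it started 6 bp from the summit. TAATTA occurred at 3 of 8, those of fru, ab and 1 of lola, against 14.2%. Over the 142 pooled candidates TAATTA was found at 12.7%, against 10.6% of the whole list, and AGATAA at 13.4%, against 10.5%. GAGAG occurred at 2 of 8, those of fru and 1 of lola, against 25.8%, and the longer GAGAGAG, which contains it, at 0 against 5.51%. None of the 8 had the DRE site TATCGATA (4.04% of all IDR peaks), the M1BP site GGTCACACT (1.93%), the Zelda site CAGGTAG (1.19%) or the E-box CAGCTG (11.5%). Over the 142 pooled candidates, GAGAG was found at 24.6%, against 25.0% of the whole list, and GAGAGAG at 7.75%, against 4.12%.

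GAGAG, the sequence that Psq itself binds, was more common at the promoters than at the candidates. It lay within 100 bp of 11 of the 23 TSSs (47.8%), against 24.9% of all protein-coding TSSs, among them all 4 of lola and 2 each of fru and psq. GAGAGAG lay at 5 of the 23 (21.7%), against 4.67%. The TSSs of 1 gene are not independent of one another, and no test was made.

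Median GC content within 100 bp of the summit was 37.8% at the 8 IDR summits and 41.5% at the 142 pooled candidates. The values for the whole lists were 37.3% and 43.8%.

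Of 16 other BTB factor genes listed for comparison, 15 matched the annotation, and 10 of these had an IDR summit in the same window (66.7%), beside 30.4% of all protein-coding genes. They were br, Trl, mod(mdg4), rib, ken, mamo, lolal, Cp190, CG3726 and CG12236. Of the 6 comparison genes of 20 kb or more, 4 had such a summit, beside 46.2% of all protein-coding genes of that length. Trl, which encodes GAGA factor and so reads the same repeats as Psq, had 5, more than lola, the strongest with signal 331 (rank 46). The density of the 15 comparison genes was 2.63 per 100 kb over 569 kb, against 1.52 for the 7 genes. Trl alone held 5 of the 15 summits behind this value, and a density without Trl was not calculated. Gene length differed too: 6 of the 15 comparison genes were 20 kb or more, whereas the 7 gene bodies measured 36.8 to 131 kb. A density at matched length was not calculated. The genes ttk, lov, BtbVII, CG8924 and CG6765 had none.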

How the data were processed

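Per the deposited file lists, the authors made each replicate's candidates from its dm6 alignments and a control, the pooled candidates from both alignments, and the IDR peaks from these 3 lists. The sources used here name no peak caller, aligner or IDR threshold. The signal of a region and its q-value, deposited as −log10, are the authors' values and served only for description and ranking within a list, plus a q-value limit of 0.05. The dm3 lists were not used here.

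Summits (region start plus offset) were placed in windows of each gene with Python 3.11.15 and pandas 2.3.3, using the Ensembl 115 annotation and the Release 6 sequence; all region ends lay within the reference arms. Promoters were 500 bp around a TSS, and candidates matched within 100 bp. Coordinates are 1-based. Window counting and motif search were tested on simulated data. With 1 group of 2 libraries no test was made, and counts are set beside shares over all genes, TSSs or regions. The members, comparison list and settings were chosen with earlier results of these data known. All 7 genes, each IDR summit in their windows and each strongest candidate were to be named. Other regions and motifs were described after their values were seen. Alternatives changed the window, list, distances and library.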

Additional observations from a re-analysis of the deposited data

How the results depend on the processing

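Nearly all of these counts are small, so single regions move them. The 5 genes with an IDR summit became 3 without replicate 3 and 5 without replicate 2 (each the other library's own strongest regions). The 5 without replicate 2 were not the same genes, since chinmo entered and fru dropped out. With gene bodies alone or with 1 kb of flank 4 remained, without ab. All 7 had a summit with the number of pooled regions doubled, and 1, lola, among the 1088 IDR peaks of highest signal. The 8 summits became 5 with gene bodies alone or with 1 kb of flank, 2 among those 1088 peaks, 24 with the number of pooled regions doubled, and, in a setting chosen after seeing the data, 4 without lola. Per 100 kb, 1.52 became 1.09, 1.06, 0.379, 4.55 and 0.877 in the same settings, and 1.52 to 1.71 when 1 library was left out. The 2 TSSs with an IDR summit within 500 bp became 0 within 250 bp, 4 within 1 kb, and 1 to 3 when 1 library was left out. Of the 142 pooled candidates, 38 had a q-value at or below 0.05. The 6 IDR summits matched in both replicates became 3 within 50 bp and 2 among each library's strongest regions, and 8 within 250 bp. The count of 0 GCM octamers was the same in windows of 50 and 250 bp and with the strict octamer. With the octamer within 100 bp of only 0.781% of all IDR peaks, a count of 0 among 8 summits was likely beforehand. Its stability therefore says little about these genes. Read depth is unknown, so what depth limits could not be assessed.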
